A study of Homo sapiens with 15 samples.

Results

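The NF-κB genes described here were the 8 rows of the expression tables whose gene symbol is *NFKB1*, *NFKB2*, *REL*, *RELA*, *RELB*, *NFKBIA*, *NFKBIB* or *NFKBIE*, out of 18338 genes present in all the tables. The first 5 encode every NF-κB/Rel subunit and the other 3 encode the classical IκB inhibitors. All 8 members passed the filter on low values (a mean of at least 1 FPKM over 15 libraries), as did 11753 of the 18338 genes. RNA-Seq was performed on “Biosensor” cells, a HEK293 human embryonic kidney line that in all 3 groups stably expressed TauRD(P301S)-YFP, the mutant tau repeat domain joined to yellow fluorescent protein. Control cells were transfected with brain lysate of wildtype mice, and PS19 cells with brain lysate of PS19 mice, a tauopathy model that expresses human P301S tau in the nervous system. Thapsigargin cells received 0.3 µM thapsigargin, which blocks the calcium pump of the endoplasmic reticulum (ER) and served as the positive control for ER stress. There were 5 libraries per group. Neither the duration of thapsigargin treatment in these libraries nor whether those cells also received wildtype lysate is given, so lysate transfection itself may enter that comparison. The replicates are called independent without naming separate cultures, so each p-value measures the spread between libraries, which may be technical.

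NF-κB is a family of dimeric transcription factors. In resting cells the subunits are held in the cytosol by IκB proteins, and signals that activate the IκB kinase (IKK) complex lead to IκB degradation and entry of the dimers into the nucleus. In the canonical pathway this frees mainly dimers of RELA or REL with p50, the processed product of *NFKB1*. In the noncanonical pathway the kinase NIK promotes processing of the *NFKB2* product p100 to p52, which acts with RELB. Much of this regulation is at the protein level and is not seen in mRNA. Several subunit and inhibitor genes are themselves NF-κB targets, and PERK activity during ER stress is known to activate NF-κB by reducing IκBα synthesis.

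Promoter sequence is shown because members of the family control each other through κB sites, and members with such a match moved in different directions below. RefSeq windows from 250 bases before to 50 bases after the transcription start (GRCh38.p14) were available for 6 members, *NFKB1*, *NFKB2*, *REL*, *RELA*, *NFKBIA* and *NFKBIB*, in 11 windows. The κB consensus was searched on both strands, and overlapping matches were joined. It was found in 6 of the 11 windows, in 5 of the 6 members, at 8 places. Of all 35116 windows of 300 bases, 5.9% held a match. *RELA* had none in its windows. The matches are in capitals, on the strand of the gene.
NFKB1, chr4:102501285-102501334, plus strand: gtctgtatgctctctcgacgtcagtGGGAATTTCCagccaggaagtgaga
NFKB2, chr10:102394446-102394496, plus strand: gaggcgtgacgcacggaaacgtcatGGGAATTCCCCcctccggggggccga
NFKB2, chr10:102394475-102394524, plus strand: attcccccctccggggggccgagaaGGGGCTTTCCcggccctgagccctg
NFKB2, chr10:102395504-102395553, plus strand: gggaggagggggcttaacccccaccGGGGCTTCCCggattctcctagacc
NFKB2, chr10:102395659-102395704, plus strand: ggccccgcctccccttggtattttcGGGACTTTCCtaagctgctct
REL, chr2:60881502-60881552, plus strand: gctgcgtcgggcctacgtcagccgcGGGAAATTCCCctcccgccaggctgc
NFKBIA, chr14:35404806-35404855, minus strand: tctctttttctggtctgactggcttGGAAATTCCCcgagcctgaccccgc
NFKBIB, chr19:38899916-38899966, plus strand: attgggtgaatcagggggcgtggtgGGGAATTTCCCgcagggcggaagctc
The match began 49 bases before the start of *NFKB1*, 47 before that of *REL*, 81 before that of *NFKBIA* and 28 before that of *NFKBIB*. *NFKB2* had matches 107 and 78 bases before one start and 176 and 21 bases before another. The same 10 letters, GGGAATTTCC on either strand, were present in 4 members, *NFKB1*, *REL*, *NFKBIA* and *NFKBIB*. The CHOP-ATF4 element TGATGNAA, searched the same way because CHOP and ATF4 act downstream of PERK, was in 0 of the 11 windows and in 3.6% of all windows. A match of letters is a description of the window and does not show binding.

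Values are FPKM as deposited, which divides the fragments of a gene by its transcript length and by library size, so levels can be compared between genes. The study states a read depth for its samples, but the reads mapped in each library are not listed, and no counting interval was computed. FPKM summed to 506146 to 552511 per library in control, 523601 to 547043 in PS19 and 551499 to 637687 in thapsigargin. The median log2 fold change of thapsigargin against control over all genes tested was -0.13 as deposited. It was -0.29 after rescaling each library to the same sum (TPM). Of the HEK293 markers, 7 of 7 were at a mean of at least 1 FPKM in every group. They summed to 572.3 to 752.0 FPKM over the 15 libraries, mostly *VIM* (524.4 FPKM on average in control). These levels do not by themselves identify the line. The 7 leukocyte markers, relevant because NF-κB genes are strongly expressed in immune cells, summed to 1.89 to 3.85 FPKM, with none at a mean of 1 FPKM. The 8 brain cell markers summed to 8.01 to 12.07 FPKM in all groups, mostly *GAD1* (6.51 FPKM in control). In each group 2 of these 8 were at a mean of at least 1 FPKM. Thapsigargin raised 8 of 8 ER stress response genes. *DDIT3*, which encodes CHOP, had 10.4 FPKM in control, 8.28 in PS19 and 140 in thapsigargin cells on average.

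Libraries also differed in base composition. A GC index was taken as the median log2 deviation of the 25% of genes with the highest GC content minus that of the 25% with the lowest. Control libraries 1 and 2 stood apart, with indices of 0.017 and 0.063, from control libraries 3 to 5, at -0.262, -0.307 and -0.301. PS19 libraries lay between -0.151 and 0.009. Thapsigargin libraries were at 0.518, 0.695, -0.266, 0.225 and 0.132. A length index, short minus long transcripts, ran from -0.416 to -0.008 in control and from 0.042 to 0.607 in thapsigargin libraries, without overlap. The members span this range. *REL* has 38.4% GC and 11108 transcript bases, whereas *NFKBIB* has 64.6% GC and 1192 bases, *RELB* 64.9% and *NFKB2* 61.2%. Between them lie *NFKBIE* with 60.4% GC, *RELA* with 58.6%, *NFKBIA* with 53.05% and *NFKB1* with 50.1%. The results are therefore also given after correcting each library for GC content and length, an alternative chosen after seeing the data, and without libraries that stood apart. Since the length index separated control from thapsigargin libraries, this correction may also remove part of a thapsigargin effect, which was not tested.

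In control cells the RelA and IκBβ transcripts were the most abundant members, and those of c-Rel and RelB the least. *RELA* (gene ID 5970), the main transactivating subunit of canonical dimers, had 51.72, 53.78, 45.0, 51.05 and 49.33 FPKM in control libraries 1 to 5. *NFKBIB* (gene ID 4793), the inhibitor IκBβ, had 51.1, 47.86, 41.56, 39.82 and 40.76 FPKM. The ranges of these transcripts overlapped, although *RELA* was above *NFKBIB* in 5 of 5 control libraries. *NFKBIA* (gene ID 4792), the rapidly induced inhibitor IκBα, followed at 21.76 ± 0.610 FPKM (SD, n = 5). It overlapped *NFKB2* (gene ID 4791) at 19.41 ± 1.80 FPKM but exceeded it in 5 of 5 libraries. *NFKB1* (gene ID 4790) had 9.63 ± 0.799 FPKM and *NFKBIE* (gene ID 4794), the inhibitor IκBε, 4.59 ± 0.421 FPKM. *REL* (gene ID 5966) had 2.43 ± 0.812 FPKM and *RELB* (gene ID 5971) 1.378 ± 0.170 FPKM, close to the filter on low values. From *NFKBIB* down, the only neighbours whose ranges overlapped in control cells were *NFKBIA* and *NFKB2*.

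The order of the 8 means in PS19 cells was that of control cells. In thapsigargin cells *NFKBIB* was first instead of *RELA*, *NFKB2* moved above *NFKBIA*, and *RELB* moved above *REL*. *NFKBIB* exceeded *RELA* in 5 of 5 thapsigargin libraries and their ranges were apart. *NFKB2* and *NFKBIA* were also apart there. *RELB* exceeded *REL* in 5 of 5 libraries, but their ranges overlapped.

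**Figure D1:**
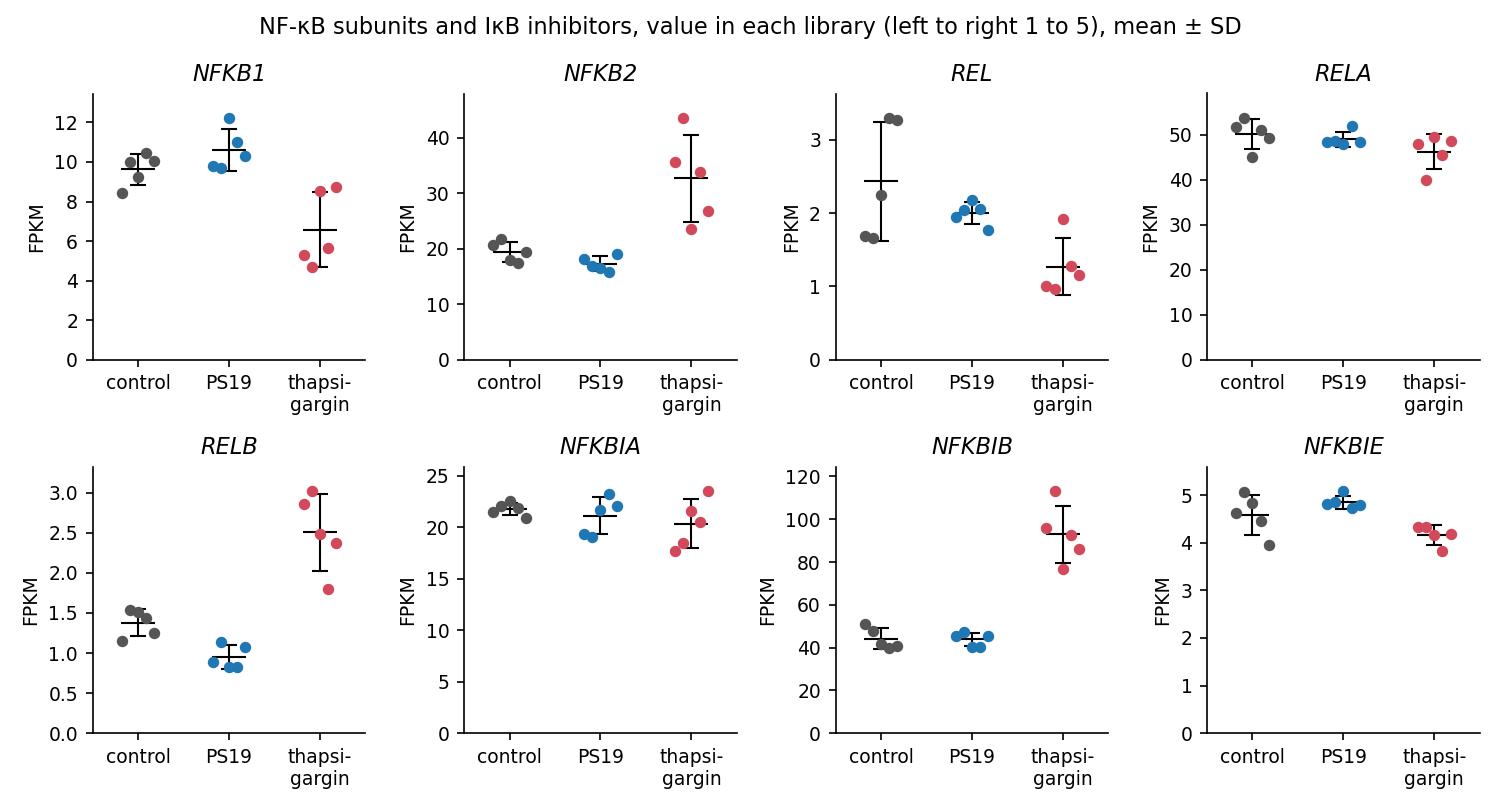
FPKM of the 8 members (one panel each, y axis in FPKM from 0) in the 5 libraries of each group, drawn from left to right as libraries 1 to 5, with the mean and SD in black. *NFKB2*, *RELB* and *NFKBIB* were higher in every thapsigargin library than in any other library, whereas *RELA* and *NFKBIA* overlapped between all groups.

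The first comparison asked whether PS19 lysate, which seeds tau aggregation in these cells, changed NF-κB gene expression relative to wildtype lysate. None of the members passed the test. Log2(FPKM + 0.5) values were compared with limma, with p-values adjusted by the Benjamini-Hochberg method over all 11753 genes and a threshold of 0.1. The number called was 0 of 8 members and 5 of 11753 genes (0.0425%). At an unadjusted p under 0.05 there were 2 members, *RELB* and *NFKB2*, and 706 genes (6.01%). The median log2 fold change was -0.04 over the members and -0.01 over all genes tested.

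*RELB* had the lowest values of the family in PS19 cells. It had 1.15, 1.54, 1.51, 1.44 and 1.25 FPKM in control and 0.89, 1.14, 0.83, 0.82 and 1.08 FPKM in PS19 libraries. Every PS19 library lay below every control library, but the gap between the highest PS19 and the lowest control value was 1.14 to 1.15 FPKM. The log2 fold change was -0.37 (standard error, SE, 0.096, limma adjusted p = 0.464), and an exact two-sided permutation test gave p = 0.0079, the smallest that 5 against 5 libraries allow. *RELB* is among the PERK-regulated genes that the study picked for their change in these same libraries, so this unadjusted value is no independent evidence. Without control libraries 1 and 2, a fit chosen after seeing the data, *RELB* passed at -0.39 (limma adjusted p = 0.0378). In that fit 2 of 8 members were called, beside 20.7% of all genes.

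*NFKB2*, the partner of RELB in noncanonical dimers, had 20.62, 21.72, 17.97, 17.4 and 19.34 FPKM in control and 18.24, 16.89, 16.55, 15.79 and 19.1 FPKM in PS19 libraries. The groups overlapped, with 3 PS19 libraries below all control libraries. Its log2 fold change was -0.16 (SE 0.070, limma adjusted p = 0.82, exact permutation p = 0.0794). Without control libraries 1 and 2 it was -0.07, and with GC and length correction and the replicate number as a block it passed at -0.17 (limma adjusted p = 0.0973), both fits chosen after seeing the data.

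*REL*, which encodes the subunit c-Rel, is where the control libraries disagreed most. Control libraries had 1.69, 1.66, 2.24, 3.3 and 3.27 FPKM, the reverse of the order of their GC indices. PS19 libraries had 1.95, 2.04, 2.18, 2.06 and 1.77 FPKM and all lay inside the control range. The log2 fold change of -0.19 (SE 0.15, limma adjusted p = 0.869) became -0.45 (adjusted p = 0.028) without control libraries 1 and 2 and 0.09 (adjusted p = 0.99) without control libraries 4 and 5, both fits chosen after seeing the data. The direction for *REL* therefore depended on which control libraries were used.

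The other members differed little between PS19 and control. *NFKB1*, the precursor of p50, had 10.6 ± 1.05 FPKM in PS19 cells (log2 fold change 0.13, SE 0.075, limma adjusted p = 0.828). *RELA* had 49.01 ± 1.68 FPKM (log2 fold change -0.03, SE 0.053). The inhibitors *NFKBIA*, *NFKBIB* and *NFKBIE* had log2 fold changes of -0.05, -0.01 and 0.08, with standard errors of 0.060, 0.073 and 0.070. Groups overlapped for each of them.

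The second comparison asked how the family responded to thapsigargin. *NFKB2*, *RELB* and *NFKBIB* rose and *NFKB1* and *REL* fell, whereas *RELA*, *NFKBIA* and *NFKBIE* did not pass the test. The members that rose have the highest GC content of the family, and those that fell have the lowest. The part of base composition in this order was not tested, and values with GC and length corrected are given for each member below. The number called was 5 of 8 members (62.5%) beside 69.4% of all genes tested, so in these values the members were called no more often than genes in general. All 8 members passed, with *RELA*, *NFKBIA* and *NFKBIE* lower, after rescaling to TPM (beside 72% of genes) or after GC and length correction (beside 69.3%). By direction, 3 members were higher, beside 26% of genes, and 2 were lower, beside 43.4% of genes. The median log2 fold change was -0.11 over the members and -0.13 over all genes, so values near -0.13 are at the centre of the distribution. Relative to that median, *RELA*, *NFKBIA* and *NFKBIE* had log2 fold changes of 0.01, 0.03 and 0.00.

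The noncanonical pair rose. *NFKB2* had 35.65, 43.66, 23.64, 33.8 and 26.85 FPKM in thapsigargin libraries, against 17.4 to 21.72 FPKM in control. All 5 libraries were above every control library, and the mean ratio was 1.69. Its log2 fold change was 0.71 (SE 0.14, limma adjusted p = 0.00119, exact permutation p = 0.0079). The thapsigargin values followed the order of the GC indices of those libraries, highest in library 2 and lowest in library 3. With GC and length corrected the log2 fold change was 0.67 (adjusted p = 0.000207), and the groups stayed apart.

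*RELB* had 2.86, 3.02, 2.48, 1.8 and 2.37 FPKM with thapsigargin, against 1.15 to 1.54 FPKM in control. The groups did not overlap and the mean ratio was 1.82. Its log2 fold change was 0.67 (SE 0.12, limma adjusted p = 0.000609, exact permutation p = 0.0079), a scale that understates the change of so weakly expressed a gene. After GC and length correction it was 0.45 (adjusted p = 0.0052), and thapsigargin library 4 then fell within the control range. Both *RELB* and *NFKB2* are in the gene list that the study used for PERK and checked in thapsigargin-treated cells, so their rise is not independent evidence for that list.

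The canonical precursor *NFKB1* fell, with a wide spread. It had 5.3, 4.67, 8.51, 5.67 and 8.74 FPKM with thapsigargin and 8.43, 10.01, 9.24, 10.44 and 10.03 FPKM in control. Libraries 1, 2 and 4 were below every control library, and libraries 3 and 5 were above control library 1. The log2 fold change was -0.55 (SE 0.16, limma adjusted p = 0.00855, exact permutation p = 0.0238). It was -0.28 (adjusted p = 0.0496) with GC and length corrected, and -0.34 (adjusted p = 0.0514) without thapsigargin libraries 1 and 2, whose GC indices were the highest.

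*REL* also fell. It had 1, 0.97, 1.92, 1.28 and 1.16 FPKM with thapsigargin, and 4 of the 5 libraries were below every control library, the exception being library 3. The log2 fold change was -0.71 (SE 0.19, limma adjusted p = 0.00628, exact permutation p = 0.0238). With GC and length corrected it was -0.29 (adjusted p = 0.0388), and without control libraries 4 and 5 it was -0.44 (adjusted p = 0.0622). Its direction held in these fits, but the ratio of its deposited to its corrected log2 value was larger than that of any other called member.

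*RELA* had 47.84, 39.91, 49.51, 45.5 and 48.51 FPKM with thapsigargin, and only library 2 was below every control library. Its log2 fold change was -0.12 (SE 0.079, limma adjusted p = 0.207, exact permutation p = 0.135). It passed as lower after rescaling to TPM (-0.28), quantile normalization (-0.19) or GC and length correction (-0.19), and was 0.02 under median-ratio scaling.

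Among the inhibitors, *NFKBIB* alone rose. It had 96.06, 113.1, 76.79, 92.4 and 86.28 FPKM with thapsigargin, against 39.82 to 51.1 FPKM in control. Every thapsigargin library was above every control library, and the ratio of the means was 2.10. The log2 fold change was 1.06 (SE 0.11, limma adjusted p = 1.15e-05, exact permutation p = 0.0079). Within the thapsigargin group it followed the order of the GC index, as *NFKB2* did. With GC and length corrected it was 0.65 (SE 0.054, adjusted p = 1.24e-06), and the groups remained apart, with corrected log2 values of 6.15 to 6.38 against 5.60 to 5.67.

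*NFKBIA*, the IκB gene best known as a rapid NF-κB target, had 17.72, 18.49, 21.59, 20.47 and 23.49 FPKM with thapsigargin, against 21.44, 22.07, 22.52, 21.83 and 20.92 FPKM in control. Of the 5 libraries 3 were below all controls and 1 was above them. The log2 fold change was -0.10 (SE 0.083, limma adjusted p = 0.305). *NFKBIE* had 4.32, 4.32, 4.15, 3.83 and 4.18 FPKM against 3.96 to 5.07 FPKM (log2 fold change -0.12, SE 0.084, limma adjusted p = 0.213). Both passed as lower after rescaling to TPM (-0.26 and -0.28) or GC and length correction (-0.22 and -0.25). Under median-ratio scaling *NFKBIA* was at 0.03, and under quantile normalization *NFKBIE* was at 0.15, so no direction is given for either.

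**Figure D2:**
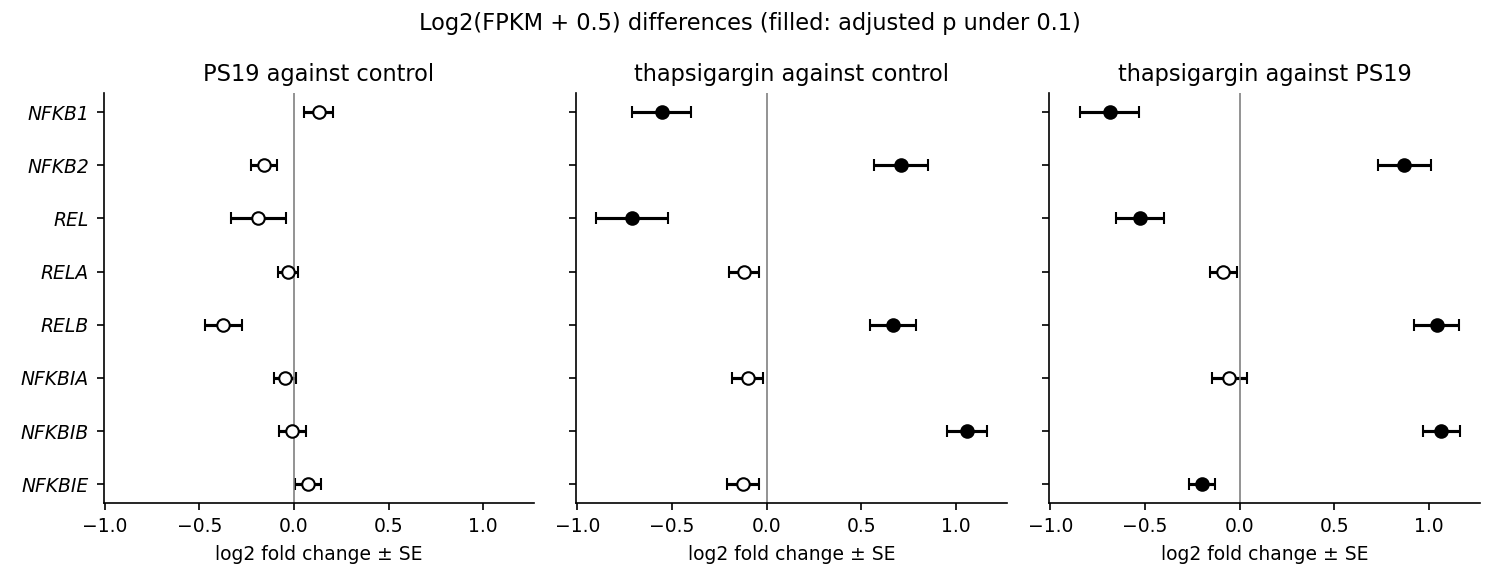
Log2 fold change with its standard error (x axis, log2(FPKM + 0.5) scale) of the 8 members in the 3 comparisons, filled where the adjusted p from limma was under 0.1. No point is filled for PS19 against control, 5 are filled for thapsigargin against control and 6 for thapsigargin against PS19.

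**Figure D3:**
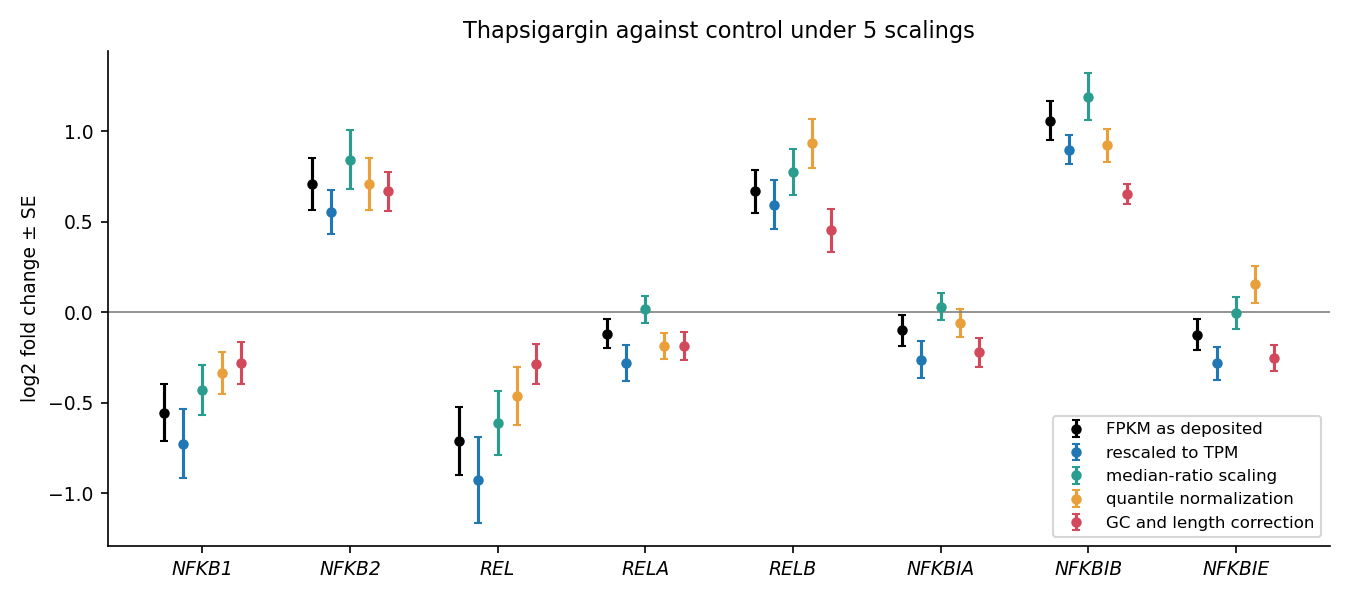
Log2 fold change with its standard error (y axis) for thapsigargin against control, with FPKM as deposited and under 4 other scalings. *NFKB1* and *REL* stay below 0 and *NFKB2*, *RELB* and *NFKBIB* above 0 in each, whereas *RELA*, *NFKBIA* and *NFKBIE* move around 0.

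The third comparison set thapsigargin directly against PS19, and so tested whether the responses to these treatments differed. It shares the thapsigargin libraries with the second. The number called was 6 of 8 members, beside 68% of all genes tested, with 3 members higher (25.8% of genes) and 3 lower (42.2% of genes). *RELB* differed by 1.04 on the log2 scale (SE 0.12, limma adjusted p = 2.51e-05), and the mean in thapsigargin cells was 2.63 times that in PS19 cells. *NFKB2* differed by 0.87 and *NFKBIB* by 1.07, and for these 3 genes every thapsigargin library was above every PS19 library. *NFKB1* was lower by a log2 value of -0.69, with every thapsigargin library below every PS19 library, and *REL* by -0.52 with 4 of 5 libraries below. With GC and length corrected, log2 values were 0.84 for *RELB*, 0.83 for *NFKB2* and 0.70 for *NFKBIB*. Those of *NFKB1* and *REL* were then -0.43 and -0.17 (limma adjusted p = 0.00642 and 0.049). All of these were still called.

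*NFKBIE* also passed in this comparison, at -0.20 (SE 0.069, limma adjusted p = 0.0247, exact permutation p = 0.0079). All 5 thapsigargin libraries, at 3.83 to 4.32 FPKM, lay below all 5 PS19 libraries, at 4.72 to 5.08 FPKM. The call was lost under median-ratio scaling (-0.09, adjusted p = 0.283) and the sign turned under quantile normalization (0.035, adjusted p = 0.718). *RELA* and *NFKBIA* did not pass, at -0.09 and -0.05. Over 24 alternatives *RELA* ran from -0.23 to 0.03 and passed as lower in 2. *NFKBIA* ran from -0.19 to 0.06 and passed as lower in 1.

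**Figure D4:**
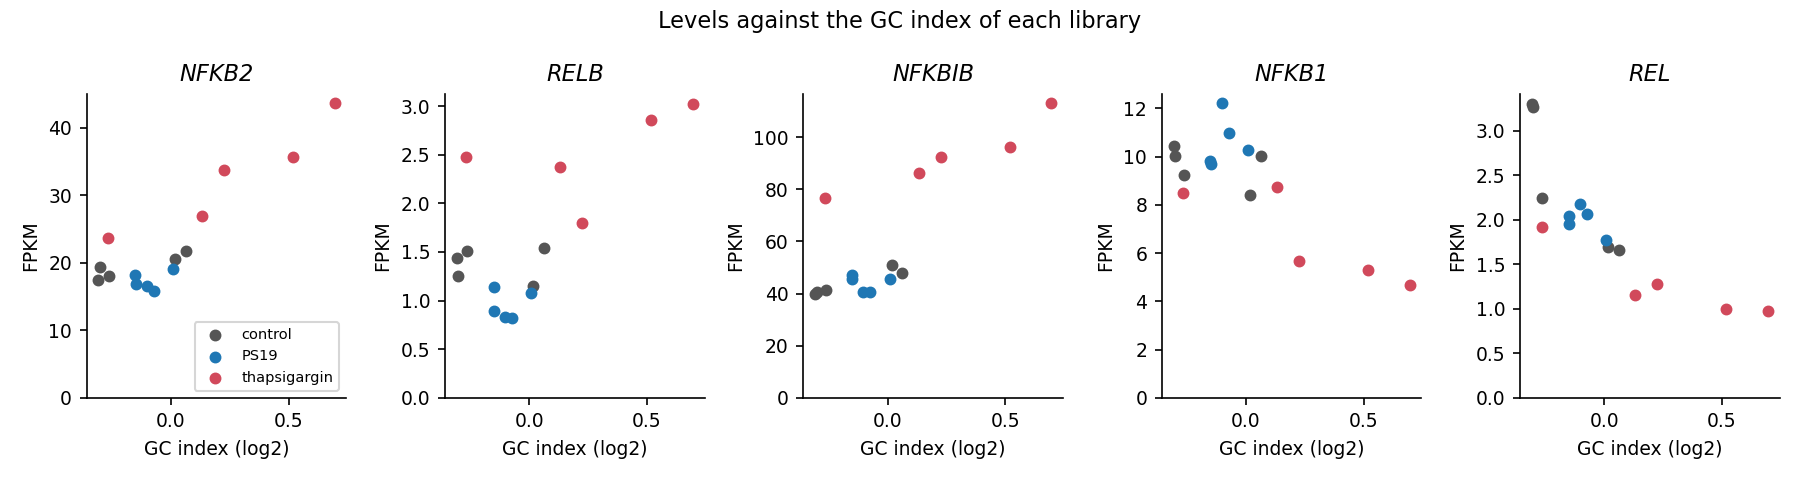
FPKM (y axis, from 0) of the 5 members called under thapsigargin against the GC index of each library (x axis, log2). Thapsigargin libraries span -0.266 to 0.695, where *NFKB2* and *NFKBIB* rise and *REL* and *NFKB1* tend to fall with the index, and the *NFKB2*, *RELB* and *NFKBIB* values of thapsigargin libraries lie above those of every other library also at the lowest index.

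Ratios between members within a library do not depend on scaling between libraries. *NFKB2* to *NFKB1* was 2.03 ± 0.293 in control, 1.65 ± 0.240 in PS19 and 5.58 ± 2.73 in thapsigargin cells (SD, n = 5), with thapsigargin libraries at 2.78 to 9.35 and control libraries at 1.67 to 2.45. *RELB* to *REL* was 0.620 ± 0.219, 0.481 ± 0.10 and 2.14 ± 0.827, and the lowest thapsigargin library, at 1.29, was above the highest control library, at 0.928. *NFKBIB* to *RELA* was 0.882 ± 0.0814 in control, 0.896 ± 0.0811 in PS19 and 2.04 ± 0.485 in thapsigargin cells. Thapsigargin libraries did not overlap the others in any of these ratios. Since GC content and length differ between the genes of a ratio, the composition differences given above also enter it.

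Of the summed FPKM of the 5 subunits, *RELA* held 60.4 ± 1.14% in control, 61.4 ± 1.55% in PS19 and 51.9 ± 5.44% in thapsigargin cells (SD, n = 5). The share of *NFKB2* was 23.4 ± 1.55%, 21.7 ± 1.76% and 36.5 ± 7.76%, that of *NFKB1* 11.6 ± 0.962%, 13.3 ± 1.26% and 7.42 ± 2.35%. *REL* and *RELB* were minor parts, at 2.94 ± 0.997% and 1.67 ± 0.236% in control. *RELB* reached 2.80 ± 0.473% with thapsigargin, and *REL* was at 1.43 ± 0.479%. The sum of the 5 subunits was 83.0 ± 4.56 FPKM in control and 89.3 ± 2.94 FPKM in thapsigargin cells.

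The 3 inhibitors together had 0.851 ± 0.0631 FPKM per FPKM of subunits in control, 0.874 ± 0.0314 in PS19 and 1.31 ± 0.103 in thapsigargin cells. Control libraries ran from 0.789 to 0.923 and thapsigargin libraries from 1.19 to 1.47. *NFKBIB* made up 62.5 ± 2.54% of the inhibitor sum in control and 78.9 ± 3.56% in thapsigargin cells, whereas *NFKBIA* was at 31.0 ± 2.26% and 17.6 ± 3.31%. The composition differences between libraries also enter these sums and shares. Within the thapsigargin group the inhibitor to subunit ratio was highest in library 2 and lowest in library 3. Those libraries had the highest and lowest GC indices of the group. These are shares of mRNA and say nothing of protein.

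**Figure D5:**
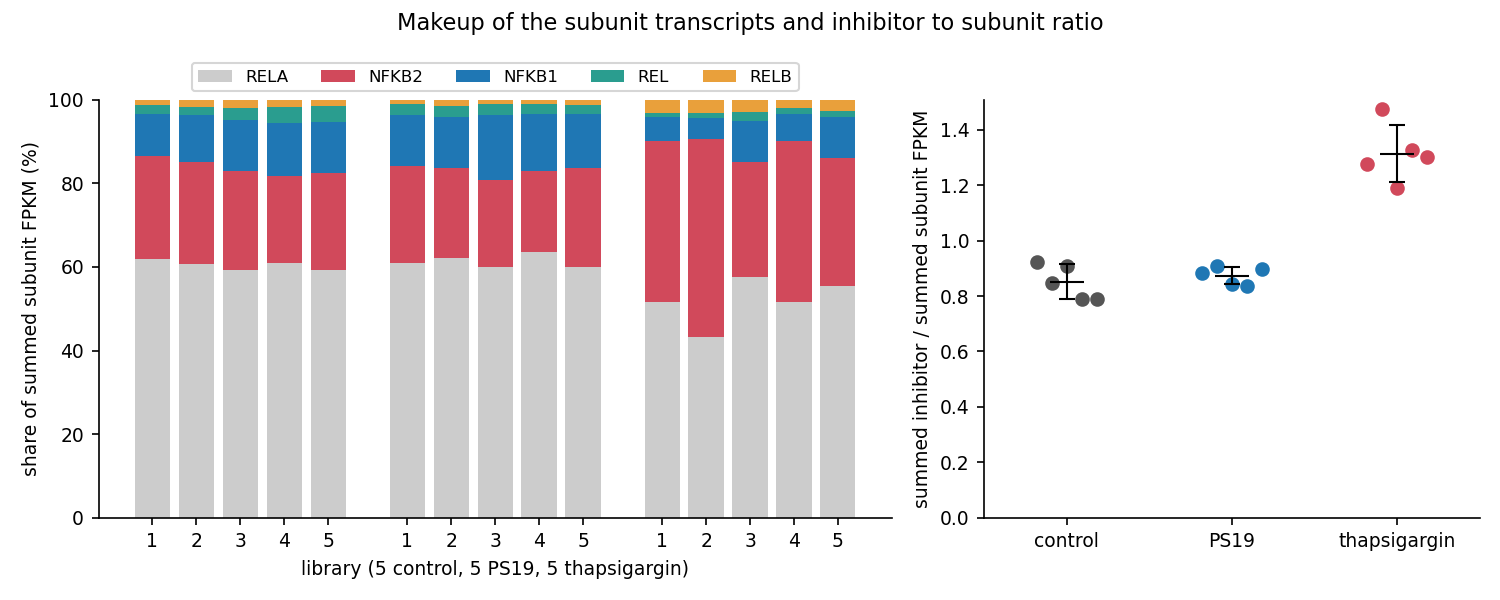
Left, share of each subunit gene in the summed subunit FPKM of each library (y axis in percent, bars for libraries 1 to 5 of control, PS19 and thapsigargin). Right, summed inhibitor FPKM divided by summed subunit FPKM in each library, with mean and SD. The *NFKB2* share was largest in thapsigargin library 2, at 47.3%, and the inhibitor to subunit ratio was above 1 only in the thapsigargin libraries.

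Other genes of the pathway came from lists set by function, chosen with earlier results of these data known, and those named had the smallest p-values of their list. Over all genes tested, 26% rose and 43.4% fell with thapsigargin, so more falls than rises in a list is also the pattern of all genes as deposited. Under median-ratio scaling 4014 of all genes rose and 3937 fell. Of 11 tested genes of the IKK complex and upstream kinases, 1 rose and 6 fell, with a median log2 fold change of -0.25. *IKBKG*, the regulatory IKK subunit NEMO, rose by 0.47 (17.58 to 24.64 FPKM). *MAP3K7*, the kinase TAK1, fell by 0.82, and the genes of its partners *TAB2* and *TAB3* fell by 1.08 and 0.75. *RIPK1*, the kinase that links TNF receptors to IKK, fell by 0.37, a call that was lost with GC and length correction (-0.08, limma adjusted p = 0.405). The median of this list was -0.01 under quantile normalization.

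Of 17 TRAF adaptors, IAPs, ubiquitin enzymes and feedback regulators, 4 rose and 9 fell (median -0.22), beside the same 26% and 43.4% of all genes. *TRAF3* and *TRAF5*, encoding receptor adaptors of which the first restrains NIK, fell by 0.49 and 0.68. *BTRC*, the ubiquitin ligase subunit that recognizes phosphorylated IκB, fell by 0.61. *SHARPIN*, of the linear ubiquitin ligase, rose by 0.62. Of 11 nuclear IκB proteins and cofactors 6 rose and 3 fell (median 0.26), beside the same shares of all genes. *NFKBIL1*, *NKAP* and *COMMD1* rose by 0.67, 0.57 and 0.44, whereas *NKRF*, a repressing factor, fell by 0.44 and *BCL3*, a nuclear IκB that binds p50 and p52, by 0.49. The directions of the genes named in the last 2 paragraphs were the same under the 4 other scalings, but sizes were not. With GC and length corrected, log2 values were 0.25 for *IKBKG*, -0.48 for *MAP3K7*, -0.35 for *TAB3*, -0.21 for *BTRC*, 0.23 for *SHARPIN*, -0.17 for *TRAF3*, -0.38 for *TRAF5*, 0.32 for *NFKBIL1* and 0.20 for *COMMD1*, all still called, and that of *NKAP* grew to 0.97. *BCL3* was -0.79 with that correction, and its call was lost under quantile normalization (-0.24, limma adjusted p = 0.306).

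Among NF-κB target genes more fell than rose with thapsigargin, as over all genes in the deposited values, by a margin that varied with the scaling. Of 35 listed, 34 were in the tables and 15 passed the filter, of which 2 rose and 10 fell with thapsigargin, with a median log2 fold change of -0.36 against -0.13 over all genes. Over all genes 26% rose and 43.4% fell. Under median-ratio scaling 2 targets rose and 7 fell, whereas 4014 of all genes rose and 3937 fell. After rescaling to TPM 2 rose and 11 fell, beside 2039 and 6424 of all genes. Under quantile normalization 4 rose and 5 fell, beside 3716 and 4132 of all genes. With GC and length corrected 4 rose and 8 fell, beside 3772 and 4069 of all genes. The chemokine gene *CCL5* rose by 1.01 (5.09 to 11.37 FPKM). *CD83* fell by 1.15 (4.73 to 1.89 FPKM), *SDC4* by 0.64 and *TNFAIP3*, the feedback inhibitor A20, by 0.54. *TNFAIP3*, with a mean of 1.66 FPKM in control, was close to the filter, and its log2 value was -0.21 with GC and length corrected and -0.29 under quantile normalization, still called. That of *SDC4* was -0.36 under quantile normalization.

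Of 17 receptors that signal to NF-κB only 6 passed the filter, of which 1 rose, *TNFRSF13C*, and 2 fell, *TNFRSF11A* and *TNFRSF12A*, beside the same 26% and 43.4% of all genes. The balance depended on the scaling. Under quantile normalization 3 were higher and 1 lower, beside 3716 and 4132 of all genes. With GC and length corrected it was 2 and 2, beside 3772 and 4069. Under median-ratio scaling it was 1 and 1, beside 4014 and 3937. The call of *TNFRSF12A* (-0.39) was lost under quantile normalization (-0.19) and median-ratio scaling (-0.27), and *TNFRSF11A* went from -0.62 to -0.20 with GC and length corrected. *TNFRSF12A* had 9.97 FPKM in control, 7.91 in PS19 and 7.56 in thapsigargin cells. Of 11 ligands, 10 were in the tables and 0 passed the filter, so none was tested. In the PS19 comparison no gene of these 5 lists of pathway and target genes was called by limma in either direction, and 5 of 55 genes tested were at an unadjusted p under 0.05. Over all 11753 genes tested, 5 were called and 706 (6.01%) were at an unadjusted p under 0.05. The lowest adjusted p among the named genes of these lists was 0.469 from limma, for *TNFRSF12A*, with a log2 fold change of -0.31 (SE 0.083). *TNFRSF12A* passed with GC and length corrected, at -0.36 (limma adjusted p = 0.0326), the only call in these lists for PS19 under the 4 other scalings.

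The genes whose levels were most like those of 3 members were taken by Pearson correlation of log2(FPKM + 0.5) over the 15 libraries, among the genes tested. For *NFKB2* they were *RPP21* (0.98), *FLT3LG* (0.98) and *FAU* (0.98). For *RELB* they were *EML2* (0.94), *PRH1* (0.93) and *JUN* (0.93), the latter with 77.7, 64.5 and 134 FPKM in control, PS19 and thapsigargin cells. For *NFKBIA* they were *KAZALD1* (0.85), *DHX16* (0.85) and *SLC25A26* (0.84). The 15 points share their 3 groups, and the group differences and base composition of the libraries enter each value, which is given as a description.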

How the data were processed

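RNA-Seq values of 15 libraries, 5 each of control, PS19 and thapsigargin cells, were used, grouped by their labels. Reads were filtered by the authors and aligned to GRCh38.p12 (HISAT2 2.0.4), and the deposited FPKM per gene and library came from RSEM 1.2.12 (versions from the submitters' processing notes). Tables were joined by gene ID, 753 text lines without a gene were left out, and 26 symbols turned into dates were restored. No library column was unused.

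Log2(FPKM + 0.5) values of genes averaging at least 1 FPKM over all libraries were compared with limma 3.58.1 (R 4.3.3, mean-variance trend, two-sided), adjusted by Benjamini-Hochberg, threshold 0.1, after a check on simulated data. The simulated noise was independent between genes, so that check did not cover composition shifts shared by the genes of a library. Exact permutation tests used all arrangements of 5 against 5 libraries. GC content and length, known for 96.3% of tested genes, were taken by symbol from GENCODE transcripts of another build and were corrected with splines.

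Named were all members, up to 4 genes of smallest p per list with thapsigargin and up to 2 with PS19, and the 3 genes most like *RELB*, *NFKB2* and *NFKBIA*. Some that the rule takes are not described. Alternatives covered pseudocount, filter, scaling, fit, block, threshold and libraries left out. Members and lists were chosen with earlier results of these data known.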

Additional observations from a re-analysis of the deposited data

Results flagged for a closer look

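In 24 combinations of member and group, each with 5 libraries, 1 value stood apart by Dixon's criterion, and chance gives about 1 in 20. *RELA* in PS19 library 4 was at 51.98 FPKM, with the other PS19 libraries at 47.84 to 48.65 FPKM.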

How the results depend on the processing

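The mapped reads of each library are not listed, only a depth stated for all samples. Low genes such as *RELB* and *REL* carry a counting error that was not computed. With thapsigargin, *NFKB1*, *NFKB2*, *REL*, *RELB* and *NFKBIB* kept direction and call in 130 of 130 alternative values against control and in 120 of 120 against PS19. Members called against control were 8 instead of 5 after rescaling to TPM, after GC and length correction, and after that correction with the replicate block (72.0%, 69.3% and 70.9% of all genes). *NFKBIE* against PS19 turned to 0.035 under quantile normalization. In that comparison *RELA* passed as lower in 2 of 24 alternatives and *NFKBIA* in 1. For PS19 against control, 1 member (*NFKB2*, -0.17, adjusted p = 0.0973 from limma) was called with GC and length correction plus the replicate block and 2 (*REL* and *RELB*) without control libraries 1 and 2. The causes were not tested. Without control libraries 1 and 2 the genes called rose from 5 to 2438. Other fits of PS19 against control called 0 (TPM, or all 15 libraries in 1 fit) to 27 genes (GC and length correction), 13 with the replicate block and 155 with block and correction. Leaving out single libraries gave 0 to 13. Correlations of same-numbered deviations were over 0.1 for 4 of 5 numbers between PS19 and control (-0.209 to 0.325), for 4 of 5 between thapsigargin and control (-0.128 to 0.609) and for 1 of 5 between thapsigargin and PS19. Since not every number passed and the labels name no shared batch, the libraries were treated as unpaired, although a partial pairing may be present. The replicate block alone called 0, 5 and 6 members, as without it. Median-ratio scaling split the thapsigargin calls into 4014 higher and 3937 lower, against 3058 and 5100 as deposited, TPM into 2039 and 6424, and GC and length correction into 3772 and 4069.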
